A study of Mus musculus with 2 samples.

Results

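The 6 mouse Mir181 genes were examined in microRNA libraries of the embryonic limb. They were found by matching the Ensembl identifier of each counted gene, without its version, to the symbols Mir181a-1, Mir181b-1, Mir181a-2, Mir181b-2, Mir181c and Mir181d, and all 6 were present among 1973 miRNA genes in the table. The libraries came from limbs of healthy B6NCrl embryos at embryonic day 13.5, male and female tissue pooled, as total RNA of a size range under 30 bases. There was 1 group with 2 biological replicates, whose tissue samples carry the same donor label, and no treated or mutant group. The values therefore compare members and clusters with each other inside each library. The spread is the spread of these 2 libraries, which may be partly technical.

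A miRNA gene is transcribed as a longer RNA that folds into a hairpin, and 2 nucleases cut the hairpin into a 5p and a 3p mature arm. The arm that is loaded into an Argonaute protein pairs with target mRNAs mainly through its seed, bases 2 to 8. For the miR-181 hairpins the 5p arm is the usual guide. In mice, miR-181a is known for tuning antigen sensitivity of developing T cells, and miR-181 has been linked to myoblast differentiation through the limb patterning gene Hoxa11. The family is encoded as 3 pairs, each with an a or c hairpin followed by a b or d hairpin on the same strand.

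The mature arms are shown because they set both the family identity and what the counting could tell apart. RefSeq sequences (GRCm38.p6) were matched for 6 of 6 members. They are written 5′ to 3′ with the seed in capitals. The 5p arms come first.

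miR-181a-5p, of Mir181a-1 and Mir181a-2: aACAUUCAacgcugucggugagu

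miR-181c-5p: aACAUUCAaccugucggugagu

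miR-181b-5p, of Mir181b-1 and Mir181b-2: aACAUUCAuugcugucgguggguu

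miR-181d-5p: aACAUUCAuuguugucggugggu

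The 6 genes thus give 4 distinct 5p sequences with 1 seed, and no other mature miRNA among the 1679 names of the table carries that seed. With positions counted from 1 at the 5′ end of the arm named first, miR-181a-5p differs from miR-181b-5p over their shared length by A9U, C10U and A21G. miR-181c-5p equals miR-181a-5p with G11 left out. miR-181b-5p differs from miR-181d-5p by C12U, apart from its last base.

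The 3p arms are 6 distinct sequences with 4 seeds, and they are the arms in which the copies differ.

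miR-181a-1-3p: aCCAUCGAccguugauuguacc

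miR-181a-2-3p: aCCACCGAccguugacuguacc

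miR-181c-3p: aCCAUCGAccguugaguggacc

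miR-181b-1-3p: cUCACUGAacaaugaaugcaa

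miR-181b-2-3p: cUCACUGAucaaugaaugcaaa

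miR-181d-3p: cCCACCGGgggaugaauguca

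miR-181a-1-3p differs from miR-181a-2-3p by U5C, which lies in the seed, and U16C. It differs from miR-181c-3p by U16G and U19G and keeps the same seed. miR-181b-1-3p differs from miR-181b-2-3p, which is 1 base longer, by A9U, just outside the seed.

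Reads that map to several places had a line of their own in the tables, 30.8% of all reads in replicate 1 and 29.5% in replicate 2, and entered no gene. The longest stretch common to the Mir181a-1 and Mir181a-2 hairpins is 28 bases and holds the whole 5p arm. For Mir181b-1 and Mir181b-2 it is 26 bases and again holds the whole 5p arm. Stretches of 18 bases were searched in the RefSeq miRNA table, which holds 1005 hairpins, fewer than the 1973 counted genes, and for Mir181c its mature arms alone. Of those in miR-181a-5p, 6 of 6 occur in another miRNA gene of that table, as do 7 of 7 in miR-181b-5p. In the 5p arms of Mir181c and Mir181d, 5 of 5 and 6 of 6 such stretches occur in no other gene of it. The same holds for every 18-base stretch of the 6 3p arms. A read that lies wholly within miR-181a-5p or miR-181b-5p matches both copies alike. Where in a hairpin the counted reads lie is not given by counts per gene: they may be reads of the 3p arms, or 5p reads that run past the shared stretch. How much of the unplaced reads were miR-181a-5p or miR-181b-5p was not tested. Copies in miRNA genes outside that table or elsewhere in the genome were not searched.

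**Figure D1:**
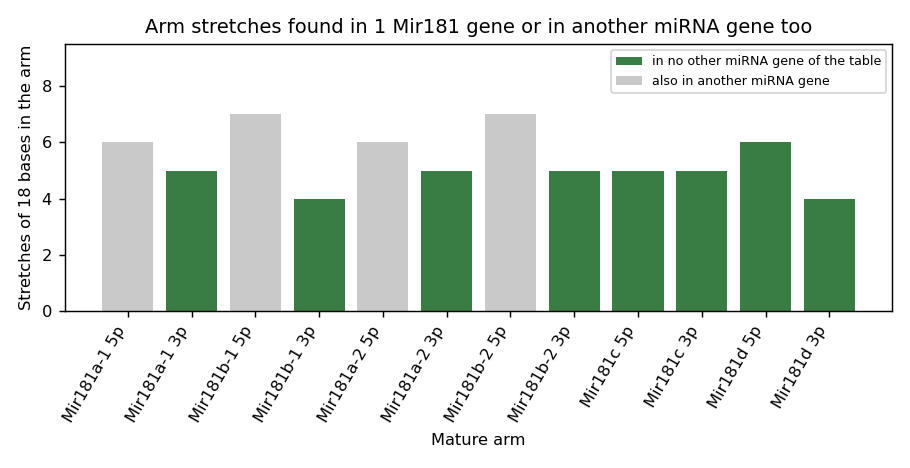
Number of 18-base stretches in each mature arm of the 6 Mir181 genes, split into those found in no other miRNA gene of the RefSeq table and those also found in another. The 5p arms of Mir181a-1, Mir181b-1, Mir181a-2 and Mir181b-2 have 0 of their own, whereas in every 3p arm, and in both 5p arms of Mir181c and Mir181d, no stretch was found in another gene of that table.

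On mm10, Mir181a-1 (ENSMUSG00000065565.1) lies on the plus strand of chromosome 1 at 137966455 to 137966541, and Mir181b-1 (ENSMUSG00000065458.1) 97 bases downstream at 137966639 to 137966718. Both lie inside the non-coding gene Gm4258 without touching its exons, and Mir181b-1 lies wholly in an exon of the lincRNA A430106G13Rik, which covers only the last 11 bases of Mir181a-1. Mir181a-2 (ENSMUSG00000065423.1) lies on the plus strand of chromosome 2 at 38852735 to 38852810, and Mir181b-2 (ENSMUSG00000065578.1) 1019 bases further at 38853830 to 38853918. Both are antisense to an intron of Nr6a1, which encodes an orphan nuclear receptor, and Mir181b-2 also lies opposite an exon of the unclassified transcript Gm44144. Mir181c (ENSMUSG00000065483.1) at 84178873 to 84178961 and Mir181d (ENSMUSG00000076338.1) at 84178716 to 84178787 lie 85 bases apart on the minus strand of chromosome 8, outside the exons but within the span of Nanos3, a gene known for its role in germ cells. Antisense counts were 0 over all 6 members in both libraries.

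**Figure D2:**
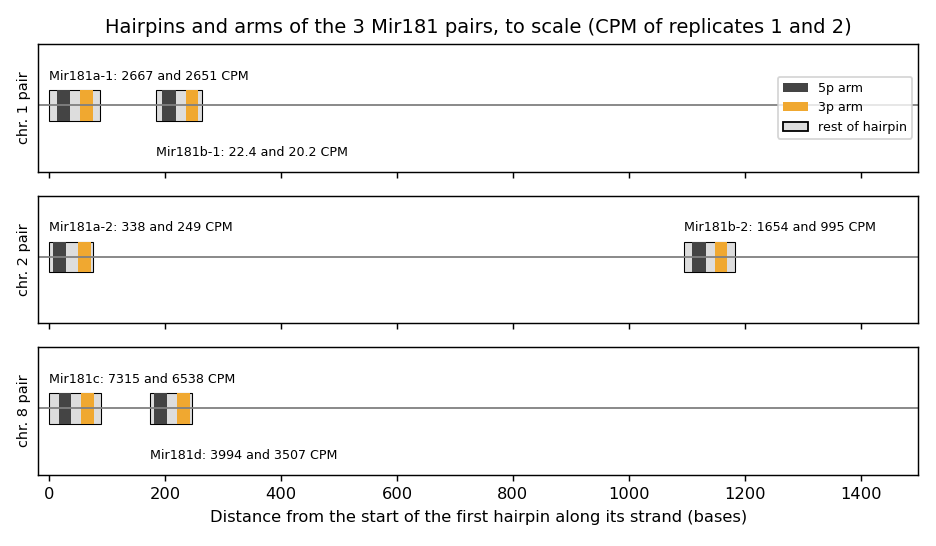
Hairpins of the 3 pairs drawn to scale against the distance in bases from the start of the first hairpin along its strand, with 5p and 3p arms marked and the CPM of replicates 1 and 2 beside each gene. The chromosome 1 and chromosome 8 pairs are compact, with 97 and 85 bases between hairpins, whereas 1019 bases separate the hairpins on chromosome 2.

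Replicate 1 held 5927321 sense counts in miRNA genes and replicate 2 held 6003632, and dividing by these totals gave each level in CPM. A count of 0 would have allowed up to 0.5061 and 0.4997 CPM. The limb label was checked with 10 miRNA genes of cartilage, muscle, Hox clusters, endothelium and ectoderm, of which 10 were detected, holding 16.6% ± 0.559 of counts (SD, n = 2). Mir196b led them at 75238 ± 6154 CPM, and the lowest of the 10, Mir196a-1, lay at 21.7 CPM. Its copy Mir196a-2 lay at 964 ± 122 CPM, and how many reads of these copies were left unplaced was not tested. The liver gene Mir122 held 0.00737% ± 0.000976. At 73.7 ± 9.76 CPM Mir122 was detected too, so detection alone does not separate the tissues. It lay above Mir196a-1 and below every other gene of the limb list. No batch is named in the labels.

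All 3 loci gave counts, and the 6 counted levels spread widely. Mir181c was 326-fold above Mir181b-1 in replicate 1 and 324-fold above it in replicate 2. The 5p arm of Mir181b-1 is shared with a copy and that of Mir181c is not. Level and countable sequence therefore cannot be told apart in this fold, nor in the order of the members below. All 6 members had at least 10 sense counts in each library, which 18.9% of all counted miRNA genes reached. Together they held 1.60% of sense counts in replicate 1 and 1.40% in replicate 2, 1.50% ± 0.144 (SD, n = 2). The order was the same in both libraries: Mir181c, Mir181d, Mir181a-1, Mir181b-2, Mir181a-2 and Mir181b-1, from the highest to the lowest. No neighbours in that order overlapped between libraries. Their fold differences were smallest between Mir181d and Mir181a-1, at 1.50 in replicate 1 and 1.32 in replicate 2. They were largest between Mir181a-2 and Mir181b-1, at 15.0 and 12.3.

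Mir181c, both of whose arms were found in no other gene of the RefSeq table, had 7315 CPM in replicate 1 and 6538 CPM in replicate 2, with 43359 and 39251 reads. That made it the 29th of all miRNA genes by mean level, at 6926 ± 550 CPM (SD, n = 2). Its partner Mir181d had 3994 and 3507 CPM, 3751 ± 344 on average (SD, n = 2), and ranked 49th.

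Mir181a-1 came next, at 2667 CPM in replicate 1 and 2651 CPM in replicate 2, a difference smaller than the counting interval of either value (2626 to 2709 and 2610 to 2692 CPM, exact 95% Poisson). It was the steadiest member, with a coefficient of variation of 0.436% between libraries. Mir181b-1, its neighbour 97 bases downstream, had 22.4 and 20.2 CPM from 133 and 121 reads. Its exact intervals, 18.8 to 26.6 and 16.7 to 24.1 CPM, overlap, so no difference between libraries was detectable at this depth. These intervals cover counting error only.

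On chromosome 2 it was the b hairpin that led. Mir181b-2 had 1654 CPM in replicate 1 and 995 CPM in replicate 2, and Mir181a-2 had 338 and 249 CPM. Both were higher in replicate 1, with intervals that do not overlap between libraries (1622 to 1687 and 970 to 1020 CPM for Mir181b-2, 323 to 353 and 236 to 261 CPM for Mir181a-2). The same held on chromosome 8, for Mir181c (7246 to 7384 and 6473 to 6603 CPM) and Mir181d (3943 to 4045 and 3460 to 3555 CPM). Such differences were common: 40.3% of all genes tested between the libraries had an adjusted p under 0.05 by the exact binomial test.

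**Figure D3:**
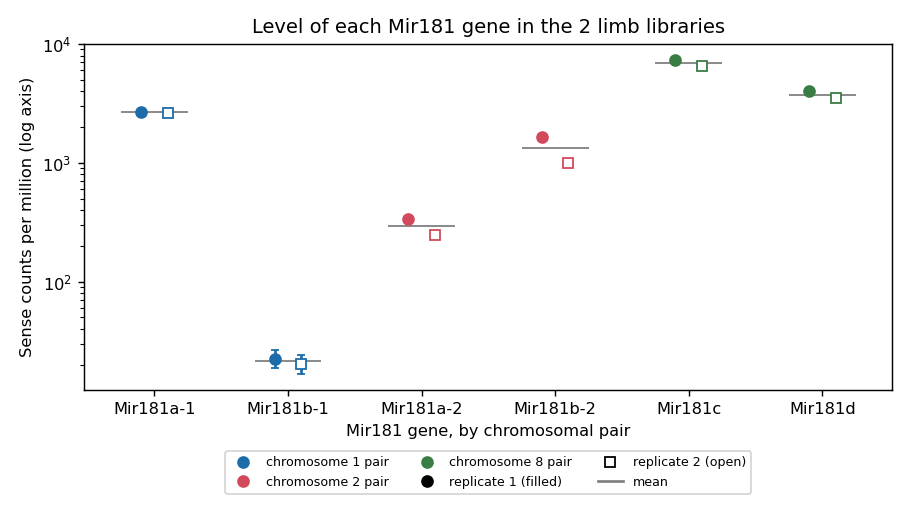
Sense CPM of each Mir181 gene on a log axis, by chromosomal pair, with filled circles for replicate 1, open squares for replicate 2, grey lines for the mean and bars for the exact 95% Poisson interval. Mir181c and Mir181d stand highest, Mir181b-1 stands far below its neighbour Mir181a-1, and the chromosome 2 genes show the widest gap between libraries.

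The 3 pairs did not share a rule for which hairpin led. The ratio of Mir181a-1 over Mir181b-1 was 118-fold in replicate 1 and 131-fold in replicate 2, a log2 ratio of 6.96 ± 0.10 (SD, n = 2). Mir181a-1 made up 99.2% of the counts of its pair in each library (exact 95% binomial intervals 99.0 to 99.3% and 99.1 to 99.4%). For Mir181a-2 over Mir181b-2 the log2 ratio was -2.15 ± 0.21 (SD, n = 2), with Mir181a-2 at 18.5% ± 2.15 of the counts of the pair. Mir181c over Mir181d gave a log2 ratio of 0.89 ± 0.02 (SD, n = 2), with Mir181c at 64.7% and 65.1% of the pair.

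The a-over-b log2 ratio on chromosome 1 exceeded that on chromosome 2 by 9.18 in replicate 1 and 9.03 in replicate 2, against SDs of 0.10 and 0.21 for the ratios themselves. All 4 hairpins involved share their 5p arm with a copy, so level and countable sequence cannot be told apart in this difference. With 2 libraries an exact two-sided permutation test cannot give a p below 0.5, so no ratio was tested. Members are counted per hairpin. Dividing by the annotated hairpin length, an alternative chosen after seeing the data, left the log2 ratios at 6.84, -1.92 and 0.58 for the chromosome 1, 2 and 8 pairs.

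Neighbouring miRNA genes often differ in counts. Across 110 pairs of next neighbours on 1 strand, within 10 kb and with both genes detected, the median absolute log2 difference was 3.07 and the highest 11.49. The Mir181a-1 and Mir181b-1 pair, at 6.97, was the 15th largest. The Mir181a-2 and Mir181b-2 pair, at 2.15, was the 75th and the Mir181c and Mir181d pair, at 0.89, the 93rd. Some genes belong to more than 1 of these pairs, so the order is a description. Genes whose mature arm is shared with a copy were not set apart. Level and countable sequence therefore cannot be told apart in these differences.

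The copies of one mature miRNA were set against each other next, since their 5p arms are equally shared. Mir181a-1 exceeded Mir181a-2 7.90-fold in replicate 1 and 10.7-fold in replicate 2, a log2 ratio of 3.20 ± 0.31 (SD, n = 2). The b copies went the other way. Mir181b-1 was lower than Mir181b-2, with a log2 ratio of -5.91 ± 0.41 (SD, n = 2), so that Mir181b-1 made up 1.34% of the counts of both in replicate 1 (exact 95% interval 1.12 to 1.58%) and 1.99% in replicate 2 (1.65 to 2.37%). Thus chromosome 1 held most of the counted Mir181a reads and chromosome 2 most of the counted Mir181b reads. The 3p arms of the copies differ by U5C and U16C for a, and by A9U for b. Whether the unplaced 5p reads divide between the loci in the same way was not tested.

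Summed over members, the chromosome 8 pair held most of the family's counts. It had 11309 CPM in replicate 1 and 10045 CPM in replicate 2, or 71.3% ± 0.874 of family counts (SD, n = 2). The chromosome 1 pair had 2689 and 2671 CPM and held 18.0% ± 1.64. The chromosome 2 pair had 1992 and 1243 CPM and held 10.7% ± 2.51. Log2 ratios were 1.99 ± 0.11 for the chromosome 8 pair over the chromosome 1 pair and 2.76 ± 0.36 for the chromosome 8 pair over the chromosome 2 pair (SD, n = 2).

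The chromosome 8 genes are also the 2 members with a 5p arm of their own, at 71.3% ± 0.874 of family counts, against 28.7% ± 0.874 for the 4 members whose 5p arm belongs to 2 genes. Level and countable sequence cannot be told apart in this comparison. The chromosome 1 pair over the chromosome 2 pair gave a log2 ratio of 0.43 in replicate 1 and 1.10 in replicate 2, 0.77 ± 0.47 (SD, n = 2). That direction comes from Mir181a-1: taken as the median of the members' log2 counts in place of their sum, the ratio was -1.36.

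**Figure D4:**
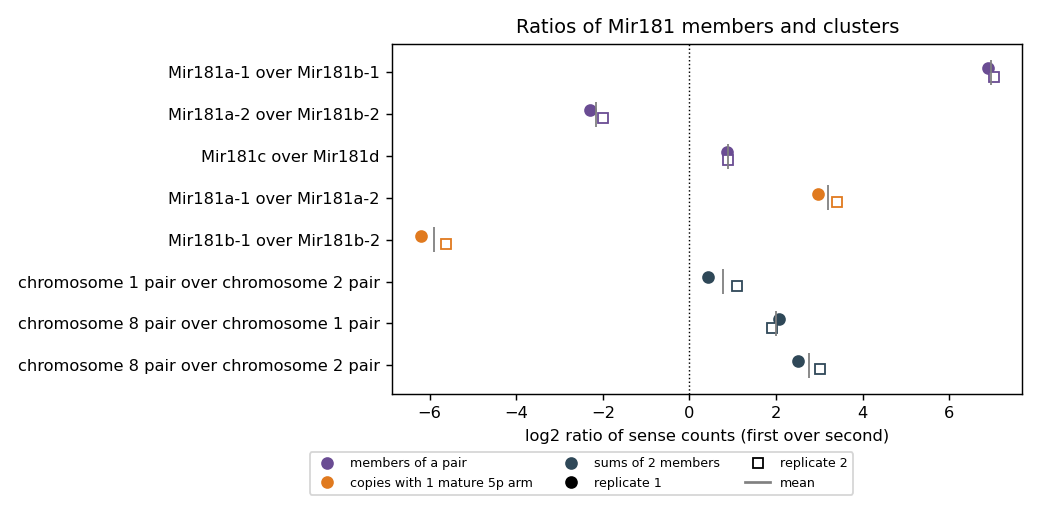
Log2 ratios of sense counts within pairs (purple), between copies with the same mature 5p arm (orange) and between cluster sums (dark), first over second, with circles for replicate 1, squares for replicate 2 and grey lines for the mean. The a-over-b ratio is 6.96 on chromosome 1 and -2.15 on chromosome 2, and both libraries lie on the same side of 0 in each of the 8 ratios.

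Between the libraries the chromosome 2 genes moved most. Mir181b-2 had 995 CPM in replicate 2, against 1654 CPM in replicate 1, a log2 ratio of -0.73. That was the largest absolute ratio among the 190 miRNA genes of at least 100 CPM, followed by Mir20b at 0.70. Mir181a-2, its neighbour, had a log2 ratio of -0.44 and was 11th of the 190. The median absolute log2 ratio over those 190 genes was 0.13, and over the 6 members it was 0.17. The members include Mir181b-1, which at 21.3 CPM is not among the 190. Mir181d, Mir181c, Mir181b-1 and Mir181a-1 had log2 ratios of -0.19, -0.16, -0.15 and -0.01. By cluster sums the log2 ratio was -0.68 on chromosome 2, -0.17 on chromosome 8 and -0.01 on chromosome 1.

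Each gene with at least 10 counts over both libraries was compared by a two-sided exact binomial test with Benjamini-Hochberg adjustment over all 444 genes. A call needed an adjusted p under 0.05 and an absolute log2 ratio of at least 1. No member was called, against 3.38% of all genes tested. With a minimum absolute log2 ratio of 0.5 it was 1 member, Mir181b-2, against 7.88% of genes tested. By the adjusted p alone 4 of 6 members passed, against 40.3% of genes tested. All 4 were lower in replicate 2, as were 22.1% of genes tested, and 0 were higher, against 18.2%. Those were Mir181b-2 (adjusted p = 1.88e-215 by the exact test), Mir181c (2.37e-57), Mir181d (7.75e-42) and Mir181a-2 (1.60e-18). Mir181a-1 and Mir181b-1 did not pass (adjusted p = 0.745 and 0.588 by the exact test). The test compares these libraries, covers counting error only and passes small ratios at high counts.

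**Figure D5:**
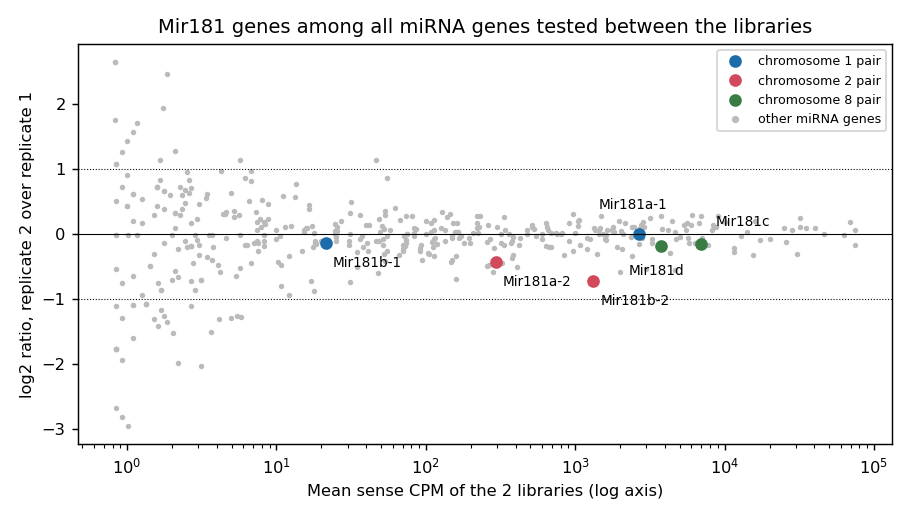
Log2 ratio of replicate 2 over replicate 1 against mean sense CPM (log axis) for the 444 miRNA genes tested, with the 6 Mir181 genes coloured by pair and dotted lines at -1 and 1. Mir181b-2, at -0.73, lies lowest among genes of at least 100 CPM, and the other members lie between -0.44 and -0.01.

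Other families in paired clusters with a duplicated member were set beside it. The Mir30 family, also of 6 genes in 3 pairs, held 2.33% ± 0.330 of counts (SD, n = 2) with 6 of 6 detected, led by Mir30e at 15602 ± 2520 CPM. Its copies Mir30c-1 and Mir30c-2 lay at 57.7 ± 1.61 and 11.4 ± 0.608 CPM. They share 1 mature miRNA, so these counts cannot be read as low expression. The Mir29 family held 0.00981% ± 0.00168 with 2 of 4 detected, and its copies Mir29b-1 and Mir29b-2 had 3 and 0 counts in replicate 1 and 0 and 0 in replicate 2. They share the mature miR-29b-3p, so their low counts cannot be read as low expression. In the Mir181 family the copies spanned 21.3 CPM for Mir181b-1 to 2659 CPM for Mir181a-1. With 1 group of 2 libraries these family differences carry no test.

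Lists tied to processes in which miR-181 is known gave the following. Of 8 myogenic miRNAs 7 were counted and 4 detected. The 3 counted but not detected are copies of the duplicated Mir1a and Mir133a genes, with 0 or 1 counts, whose shared mature reads would likewise be left unplaced, so their counts cannot be read as low expression. The counted list held 0.410% ± 0.0152 of sense counts (SD, n = 2), nearly all from the muscle gene Mir206 at 3841 ± 141 CPM, close to the level of Mir181d at 3751 ± 344 CPM. By the adjusted p alone 2 of the 4 tested passed, against 40.3% of all genes tested, and both were higher in replicate 2, against 18.2%. Of 7 blood miRNAs 6 were counted and detected, at 0.0784% ± 0.00787, led by the myeloid gene Mir223 at 318 ± 1.57 CPM. Mir155 came next at 282 ± 80.7 CPM, and the lymphoid gene Mir150 was the lowest of the list, at 6.71 ± 1.48 CPM. Of the 6 tested, 1 passed the adjusted p and was lower in replicate 2, against 40.3% and 22.1% of all genes tested. The Mir181 family held 19.0-fold more counts than the blood list in replicate 1 and 19.2-fold more in replicate 2. The blood total lacks Mir142, which was not among the counted symbols, and both totals lack reads left unplaced. None of either list was called, against 3.38% of all genes tested. In bulk tissue, fewer cells of a type and less RNA per cell cannot be told apart.

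By Euclidean distance of log2(CPM + 1) over the 2 libraries, the gene most alike in level was Mir361 for Mir181a-1 (distance 0.04), Mir196a-1 for Mir181b-1 (0.05), Mir155 for Mir181a-2 (0.14), Mir301 for Mir181b-2 (0.34), Mir130b for Mir181c (0.08) and Mir125a for Mir181d (0.07). Mir155 had 225 CPM in replicate 2, against 339 CPM in replicate 1, and so was lower in replicate 2, as Mir181a-2 was. Mir155 was picked by its values in both libraries, so the shared direction follows from the choice. For Mir181b-2 no gene lay closer than Mir301, with 1246 CPM in replicate 2 and 1553 CPM in replicate 1.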

How the data were processed

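For each library the authors deposited whole-number read counts for 1973 miRNA genes in 3 columns, taken from their layout as either strand, sense and antisense, after 4 lines for reads in no gene. Per the text deposited with the counts, the build was mm10 and the annotation M4. Aligner, counter and their settings were not given in the sources used here. Reads in no gene were left out of every size and test. Unmapped reads made up 17.2% and 18.6%, multimapping reads 30.8% and 29.5% and reads in no feature 4.24% and 4.48%. Symbols came from GENCODE M21 (GRCm38, the build of mm10) and matched 1894 of 1973 genes. Sense counts were scaled to CPM. Log2 ratios added 0.5 counts. The between-library test was the exact binomial test with Benjamini-Hochberg adjustment, tested on simulated data, in Python 3.11.15 with scipy 1.17.1. The simulated counts were Poisson, with counting error alone and library sizes taken from the unchanged genes. They cannot show how the test behaves at the wider spread of these libraries. edgeR 4.0.16 and DESeq2 1.42.0 gave other library sizes. Every member was named, with the gene nearest to each in level and the leading or duplicated genes of each list. Mir20b, the copies of the Mir30 and Mir29 families, the Mir196a copies, Mir150 and, in the blood list, Mir155 were chosen after their values were seen. The members and lists were chosen with earlier results of these data known. Since no molecular identifiers are mentioned, intervals cover counting error only. The libraries were counted as 2 samples because the labels name 2 biological replicates. A chi-square of 39337.9 over 444 genes (443 degrees of freedom) checked only that they are not repeat deposits of 1 library.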

Additional observations from a re-analysis of the deposited data

How the results depend on the processing

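Across 15 alternatives that keep both libraries, 62 of 80 recomputed values moved by less than the spread of the libraries or, for counts, stayed within 1.5 times. The exceptions follow. With all reads as denominator the levels were 1266, 10.1, 140, 631, 3298 and 1786 CPM for Mir181a-1, Mir181b-1, Mir181a-2, Mir181b-2, Mir181c and Mir181d, and the family share was 0.713%. With uniquely mapped reads they were 2435, 19.5 and 6346 CPM for Mir181a-1, Mir181b-1 and Mir181c. With both strands counted Mir181a-1 was at 2573 CPM. These follow from the larger denominators. Taking the median of members in place of the sum turned the chromosome 1 over chromosome 2 ratio to -1.36, with Mir181b-1 then weighing as much as Mir181a-1, and gave 4.42 for chromosome 8 over chromosome 1. Per base of hairpin, an alternative chosen after seeing the data, the pair ratios were 6.84, -1.92 and 0.58. Members called between libraries numbered 0, but 1 with a minimum absolute log2 ratio of 0.5 (Mir181b-2), against 35 of all 444 genes tested, and 4 with none, against 179 of 444. Library sizes from TMM or DESeq2, other count minimums and other pseudocounts gave values within the limits above. With 2 libraries, a value from 1 of them cannot lie further than the SD from their mean, so leaving out a library says nothing about stability. No paired analysis was possible because there is 1 group. Depth limits Mir181b-1, at 133 and 121 reads, most.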
